A study of Mus musculus with 9 samples.

Results

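The genes described here are 40 genes of the cell cycle and of DNA replication, taken by name from the 56263 genes of the deposited expression table. They were measured by RNA-seq in lung tissue of male BALB/c wild-type mice, bought at 6 to 8 weeks of age before the experiment, with 3 libraries in each of 3 groups. QJHTD mice received cigarette smoke, lipopolysaccharide (LPS, a bacterial cell wall product) and Qing-Jin-Hua-Tan decoction, a herbal medicine given by gavage at the highest dose of the study. Model mice received the same smoke and LPS with vehicle, as a model of chronic obstructive pulmonary disease (COPD), and Control mice received neither irritant. The experiment lasted 42 days, with 20 μg of LPS put into the trachea on days 1 and 14 and, on all other days, 3 sessions of 30 min in the smoke of 6 cigarettes. The libraries are called Q1 to Q3, M1 to M3 and C1 to C3. The labels do not say that each came from a separate mouse, so the p values measure the spread between these libraries.

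A cell that divides passes through G1, when it grows and decides, S phase, when it copies its DNA, G2, and mitosis, when the chromosomes are parted. D-type cyclins with the kinases CDK4 and CDK6 start the passage by inactivating the retinoblastoma protein, which frees E2F transcription factors to switch on the genes of replication. A later wave of genes, for cyclin B, CDK1 and the mitotic spindle, is repressed in resting cells by the DREAM complex and switched on in G2 by B-MYB and FOXM1. In adult lung few cells divide, and most of them are immune cells or epithelial and endothelial cells under repair.

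The promoters of these waves are known to differ in sequence, so the start regions of several members are shown here. RefSeq windows on GRCm38.p6, of 250 bases before and 50 after the start, were held for 32 of the 40 genes (34 windows), and 8 genes had no entry (Ccnd1, Ccnd2, Ccne2, Mcm4, Gins2, Ccna2, Foxm1 and Aurkb). The words searched were those of E2F (TTTCCCGC, TTTCGCGC, TTTGCCGC and TTTGGCGC), of the cell cycle homology region or CHR, the element that DREAM reads (TTTGAA and TTCGAA), and of the CCAAT box, which NF-Y reads (CCAAT). Both strands were searched, so that the reverse complements GCGGGAAA, GCGCGAAA, GCGGCAAA, GCGCCAAA, TTCAAA and ATTGG also counted, and words of different motifs overlapped in 1 member window. Each run given here is the 160 bases just before the start, 5′ to 3′ on the gene's strand, with these words in capitals. The set holds 4 genes of mitosis with a CHR, a pair of MCM genes with E2F words and Cdk4, a G1 gene with none of the words.
Cdk1 (chr10:69352913-69353072, minus strand): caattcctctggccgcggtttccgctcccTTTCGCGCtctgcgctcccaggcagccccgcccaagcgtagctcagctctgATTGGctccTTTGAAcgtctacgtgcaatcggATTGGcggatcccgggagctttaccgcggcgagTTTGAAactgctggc
Cdc20 (chr4:118437344-118437503, minus strand): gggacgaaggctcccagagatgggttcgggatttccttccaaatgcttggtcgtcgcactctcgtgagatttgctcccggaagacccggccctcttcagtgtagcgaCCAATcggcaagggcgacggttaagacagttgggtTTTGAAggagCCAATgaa
Ube2c (chr2:164769769-164769928, plus strand): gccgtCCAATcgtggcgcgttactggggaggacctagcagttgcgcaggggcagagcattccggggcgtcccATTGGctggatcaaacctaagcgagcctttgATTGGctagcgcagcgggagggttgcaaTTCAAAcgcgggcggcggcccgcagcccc
Kif11 (chr19:37376222-37376381, plus strand): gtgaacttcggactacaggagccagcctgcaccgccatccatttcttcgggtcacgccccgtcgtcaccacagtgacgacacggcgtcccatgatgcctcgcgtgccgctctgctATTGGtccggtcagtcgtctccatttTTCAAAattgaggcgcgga
Mcm5 (chr8:75109349-75109508, plus strand): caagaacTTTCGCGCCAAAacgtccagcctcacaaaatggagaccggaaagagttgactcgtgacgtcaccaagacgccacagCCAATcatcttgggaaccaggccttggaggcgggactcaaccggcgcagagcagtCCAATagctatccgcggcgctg
Mcm6 (chr1:128359706-128359865, minus strand): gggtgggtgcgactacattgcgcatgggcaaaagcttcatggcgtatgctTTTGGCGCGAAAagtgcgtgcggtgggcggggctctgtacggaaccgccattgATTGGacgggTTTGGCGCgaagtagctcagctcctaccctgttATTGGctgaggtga
Cdk4 (chr10:127063375-127063534, plus strand): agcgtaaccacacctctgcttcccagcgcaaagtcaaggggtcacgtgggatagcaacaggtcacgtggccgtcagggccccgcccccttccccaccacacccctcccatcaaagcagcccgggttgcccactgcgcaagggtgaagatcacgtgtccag

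The CHR began 18 bases before the start in Cdc20, 29 before in Ube2c, 19 before in Kif11 and both 71 and 15 before in Cdk1. Of the 14 windows of G2 and mitotic genes, 12 (85.7%) held a CHR, against 3 of 16 windows (18.8%) of G1/S, replication and nucleotide genes and 19.2% of all 32851 RefSeq windows. Every one of those 12 also held a CCAAT box, a pairing found in 7.52% of all windows. E2F words had the other distribution, with 7 of 16 windows (43.8%) in the G1/S, replication and nucleotide genes, 1 of 14 (7.14%) in the G2 and mitotic genes, which was Cdk1, and 2.26% of all windows. The 4 windows of G1 genes held neither E2F words nor a CHR. A match is a description of the letters and not a shown binding site, and a window without a match may be bound through other letters.

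**Figure D1:**
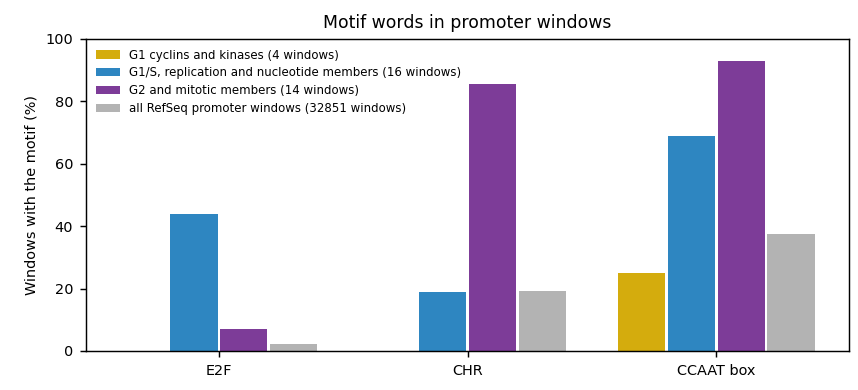
Share of RefSeq promoter windows (percent, vertical axis) that held an E2F word, a CHR or a CCAAT box on either strand, for the G1, the G1/S to nucleotide and the G2 and mitotic genes and for all windows (bars). The CHR bar stands at 85.7% in G2 and mitotic genes and the E2F bar is highest, at 43.8%, in G1/S, replication and nucleotide genes.

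All values are TPM, a measure of transcripts that is scaled for their length and to the same total in each library, so that levels of different genes can be compared. Immunoglobulin and T-cell receptor segments took 36.8 to 43.7% of that total in QJHTD, 36.2 to 42.9% in Model and 0.296 to 0.605% in Control libraries, while Scgb1a1, a secreted protein of airway club cells, took 1.37 to 1.98% of it in QJHTD, 1.18 to 3.16% in Model and 21.3 to 23.8% in Control libraries. These shares set the scale of every other gene, and the median log2 difference between Model and Control over the 16080 genes tested was -0.47. The tissue label was borne out by Sftpc, the surfactant protein of alveolar type 2 cells, at 11425.5 TPM or more in all libraries. Depth is not known from TPM. In bulk tissue, fewer cells of a type and less RNA per cell cannot be told apart.

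All 40 genes passed the filter, which asks for 3 or more of the 9 libraries to reach 1 TPM, and 31 were at 1 TPM or more in all 3 Control libraries. The summed TPM of the 17 G2 and mitotic genes was 207.8 (Q1), 221.9 (Q2) and 311.0 (Q3), against 199.6 (M1), 186.3 (M2) and 209.7 (M3) in Model and 39.3 (C1), 32.8 (C2) and 27.4 (C3) in Control lungs. The sums of the 5 G1 genes were highest in Control lungs, with 145.6 to 179.3 TPM in QJHTD, 152.0 to 165.7 TPM in Model and 253.6 to 274.2 TPM in Control lungs. Neither sum overlapped between the Control libraries and the others. Of single genes tested, 17.3% lay wholly above and 58.5% wholly below in Model against Control lungs, so a fall without overlap was common.

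**Figure D2:**
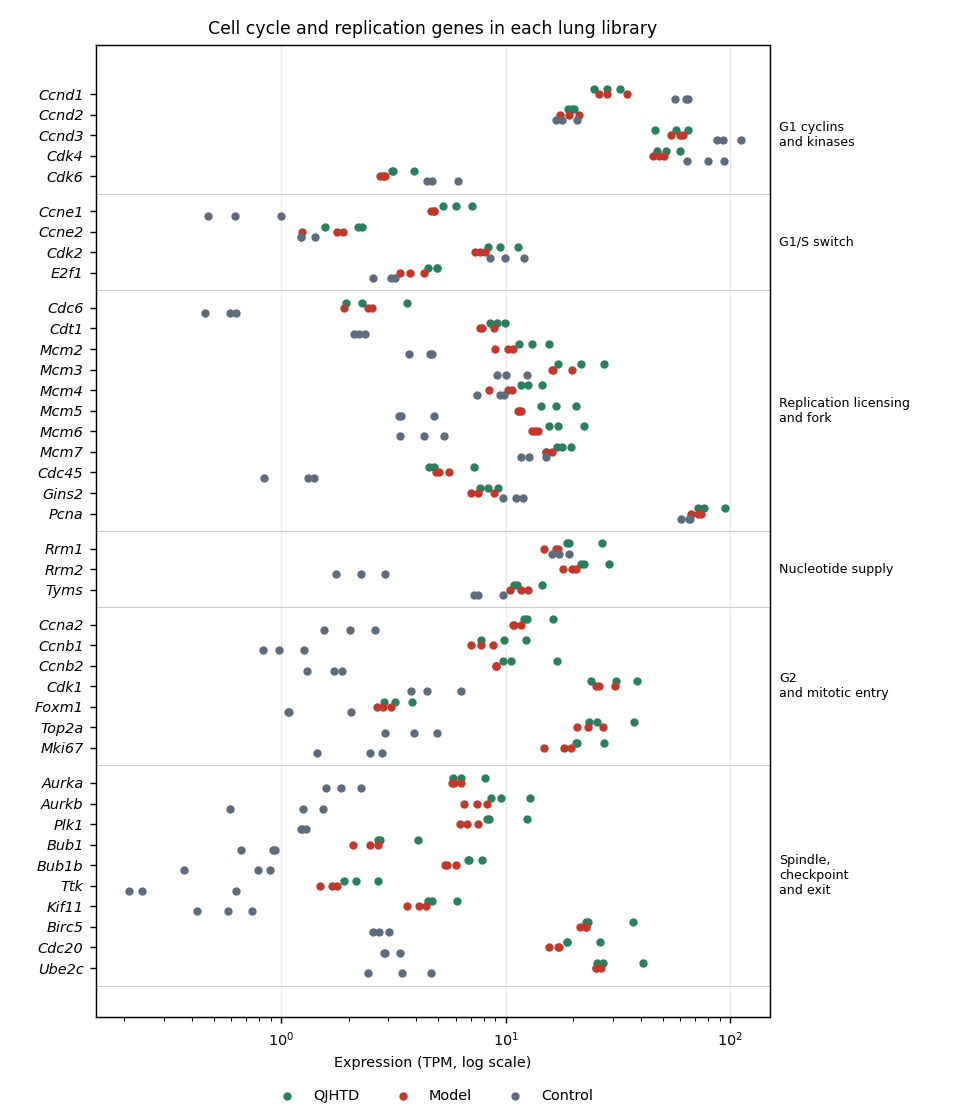
TPM (log axis) of the 40 genes in each library, with QJHTD (green), Model (red) and Control (grey) libraries as points, 3 for each group, and genes ordered by step of the cycle. The Control points lie to the right of the others for Ccnd1, Ccnd3, Cdk4 and Cdk6, and to the left of them for every G2, spindle and checkpoint gene.

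Exposure to smoke and LPS was examined first, in Model against Control lungs. Of the 40 genes 27 were higher and 5 lower at an adjusted p under 0.05 (limma on log2(TPM + 1), Benjamini-Hochberg over all genes tested), and 8 were not called, where 16.6% of all genes tested were higher and 56.5% lower. The median log2 fold change of the 40 genes was 1.18. The split followed the steps of the cycle: 0 of 5 G1 genes rose and 4 fell, 1 of 4 G1/S genes rose, 7 of 11 replication genes rose and 1 fell, 2 of 3 nucleotide genes rose, and all 7 G2 and all 10 spindle, checkpoint and exit genes rose. In terms of single libraries, the Model values lay wholly above the Control values for 29 genes and wholly below them for 6, and overlapped for 5, where 17.3% of all genes lay wholly above and 58.5% wholly below. A gene could pass the filter through the exposed libraries alone, as the 9 genes below 1 TPM in some Control library did, and the counts of higher genes include these 9. Of the 31 genes at 1 TPM or more in all Control libraries, 18 were higher and 5 lower.

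**Figure D3:**
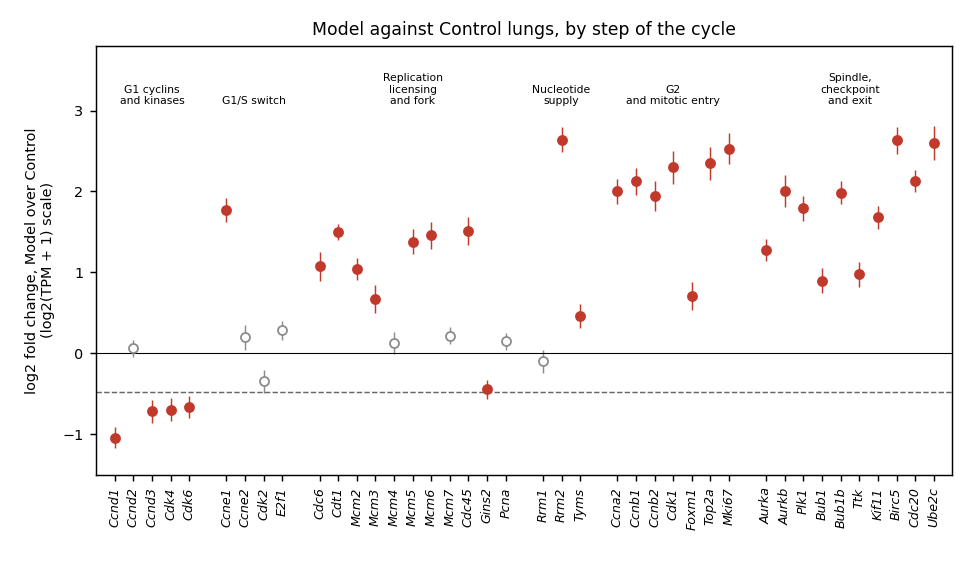
Log2 fold change of each gene, Model over Control on the log2(TPM + 1) scale, with its standard error (bars), filled where the adjusted p was under 0.05 and open where it was not. The dashed line is the median of all 16080 genes tested, -0.47, and the G2, spindle and checkpoint genes lie between 0.71 (Foxm1) and 2.63 (Birc5).

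Among the G1 genes, cyclin D1 (Ccnd1), which answers to growth signals, was at 34.6, 28.3 and 26.0 TPM in Model lungs, against 63.5, 57.0 and 64.6 TPM in Control lungs. Every Model library lay below every Control library, and the log2 fold change was -1.04 (SE 0.13, limma adjusted p = 0.000114). Cyclin D3 (Ccnd3), the D-type cyclin of many blood cells, was at 61.7, 59.9 and 54.8 TPM in Model lungs, against 93.1, 112.2 and 87.6 TPM in Control lungs, a change of -0.72 (SE 0.14, adjusted p = 0.00148). Cyclin D2 (Ccnd2), which B lymphocytes rely on, overlapped, at 21.3, 19.2 and 17.5 TPM in Model lungs and 17.8, 20.9 and 16.8 TPM in Control lungs (0.06, SE 0.11, adjusted p = 0.607).

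The partner kinases of the D-type cyclins fell by amounts like that of cyclin D3. Cdk4 was at 45.2, 48.1 and 50.8 TPM in Model lungs, against 93.7, 64.5 and 80.1 TPM in Control lungs (-0.70, SE 0.14, adjusted p = 0.00186). Cdk6 was far less abundant, at 2.91, 2.77 and 2.85 TPM in Model lungs, against 6.14, 4.72 and 4.47 TPM in Control lungs (-0.66, SE 0.13, adjusted p = 0.0019). The calls of Ccnd3, Cdk4 and Cdk6 were lost when libraries were rescaled by their median ratio or when TPM were recomputed without the receptor segments, hemoglobin and mitochondrial genes. Ccnd2 was called higher under these 2 rescalings (0.58 and 0.69) and also with quantile normalization (0.45) and with Scgb1a1 left out as well (0.34). Ccnd1 was lower under each of the 20 alternatives that kept the threshold, with a log2 fold change between -1.15 and -0.41. Cdk4 shares its locus with Tspan31 on the other strand, whose mean was 37.9 TPM in Model and 57.2 TPM in Control lungs, and whether reads were counted by strand is not given in the sources used here.

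A ratio of genes within a library does not move with the scale. Cyclin D2 over cyclin D1 was 0.617, 0.679 and 0.672 in Model lungs, against 0.28, 0.367 and 0.260 in Control lungs, with no overlap. The ratio was 0.589 to 0.797 in QJHTD lungs. Cyclin D2 made up 17.8 to 18.1% of the summed D-type cyclin TPM in Model libraries and 9.95 to 10.99% in Control libraries, and cyclin D3 was the most abundant of the 3 cyclins in all 9 libraries, at 51.0 to 59.0%.

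At the G1/S switch, where cyclin E and CDK2 commit the cell to replication, only cyclin E1 was called. Ccne1 was at 4.81, 4.79 and 4.63 TPM in Model lungs, against 1.00, 0.62 and 0.47 TPM in Control lungs (log2 fold change 1.77, SE 0.15, adjusted p = 1.12e-05). Its close relative Ccne2 was at 1.78, 1.24 and 1.89 TPM in Model lungs and 1.42, 1.22 and 1.22 TPM in Control lungs, and the values overlapped (0.20, SE 0.15, adjusted p = 0.261). Ccne2 was called higher with median-ratio rescaling (0.50), with quantile normalization (0.46) and with TPM recomputed without the segments (0.65), at limma adjusted p of 0.0106 to 0.0221. The ratio of cyclin E1 over cyclin E2 was 2.45 to 3.86 in Model and 0.385 to 0.704 in Control libraries, so that the order of the pair was turned round. The Control ratios rest on low values, between 0.47 and 1.42 TPM.

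The kinase and the transcription factor of this step missed the threshold. Cdk2 was at 7.70, 7.31 and 8.13 TPM in Model lungs, against 12.02, 8.56 and 9.89 TPM in Control lungs (-0.35, SE 0.14, adjusted p = 0.0508). E2f1, the activator of replication genes, was at 4.33, 3.40 and 3.75 TPM in Model lungs, against 3.22, 3.1 and 2.57 TPM in Control lungs (0.28, SE 0.12, adjusted p = 0.0566). Neither pair of groups overlapped, and both lay close to the threshold. Under the 4 rescalings E2f1 was called higher (0.55 to 0.83), while Cdk2 took the opposite sign under 3 of them. Cdk2 was called lower under 5 other alternatives, with a pseudocount of 0.1, with a mean of at least 5 TPM, and without Q1, Q3 or C2 (adjusted p of 0.0233 to 0.0493).

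Among the replication genes, the factors that load the helicase at origins rose. Cdt1, the loading factor, was at 7.72, 7.87 and 8.87 TPM in Model lungs, against 2.37, 2.22 and 2.12 TPM in Control lungs (log2 fold change 1.50, SE 0.10, adjusted p = 3.58e-06). Its partner Cdc6, an ATPase, was at 2.45, 1.90 and 2.54 TPM in Model lungs, against 0.46, 0.59 and 0.63 TPM in Control lungs (1.08). Cdc45, which with the GINS complex turns the loaded ring into a working helicase, was at 5.04, 5.60 and 4.92 TPM in Model lungs, against 1.40, 1.32 and 0.84 TPM in Control lungs (1.51, SE 0.18, adjusted p = 7.59e-05). None of the 3 genes overlapped between the groups. Cdt1 lies on chr8:122568015-122573554 (GENCODE M21, GRCm38) within the longer gene model Galnt2l on the same strand, which had the opposite order, with means of 36.3 TPM in Model and 72.9 TPM in Control lungs.

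The 6 MCM genes encode the subunits of that ring, which is assembled with 1 copy of each, and they did not change alike. Mcm6 was at 13.6, 13.1 and 13.95 TPM in Model lungs, against 5.30, 3.39 and 4.34 TPM in Control lungs (1.46, SE 0.16, adjusted p = 5.85e-05). Mcm5 was at 11.7, 11.5 and 11.4 TPM in Model lungs, against 4.78, 3.36 and 3.42 TPM in Control lungs (1.38). Mcm2 (1.05) and Mcm3 (0.67) also rose. Mcm4 overlapped, at 10.2, 8.47 and 10.6 TPM in Model lungs and 9.47, 9.85 and 7.42 TPM in Control lungs (0.12, SE 0.14, adjusted p = 0.426). Mcm7 was at 15.1, 15.1 and 16.1 TPM in Model lungs and 15.1, 11.7 and 12.7 TPM in Control lungs (0.22, SE 0.11, adjusted p = 0.0888).

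The subunits that were least abundant in Control lungs were those with the larger changes. Mcm7 took 19.4 to 20.6% of the summed TPM of the 6 subunits in Model libraries and 28.5 to 29.9% in Control libraries, while Mcm5 took 13.9 to 15.7% in Model and 8.04 to 9.23% in Control libraries. The highest subunit over the lowest was 1.59, 1.90 and 1.93 in Model lungs, against 3.22, 3.49 and 3.73 in Control lungs. The ratio was 1.49 to 1.90 in QJHTD lungs, so that the subunits lay closer to equal amounts in all 6 exposed libraries. Under the 4 rescalings Mcm4 (0.40 to 0.73) and Mcm7 (0.50 to 0.84) were also called higher.

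Gins2, a subunit of the GINS complex, went against its partners. It was at 7.56, 6.98 and 8.84 TPM in Model lungs, against 12.01, 11.2 and 9.73 TPM in Control lungs (-0.45, SE 0.12, adjusted p = 0.00849), and the groups did not overlap. Gins2 over Cdc45 was 1.25 to 1.80 in Model and 8.45 to 11.6 in Control libraries. The call was lost under all 4 rescalings, with values between -0.19 and 0.14. Gins2 (chr8:120578633-120589304) is overlapped on the other strand by Gse1 and by the same Galnt2l model as Cdt1. Pcna, the sliding clamp of the polymerases and the most abundant of the replication genes, was at 72.3, 66.7 and 73.9 TPM in Model lungs, against 66.0, 65.6 and 60.4 TPM in Control lungs (0.15, SE 0.11, adjusted p = 0.245). All Model values of Pcna were above the Control values by a small margin, and it was called higher (0.38 to 0.79) under the 4 rescalings.

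Ribonucleotide reductase makes the deoxynucleotides for replication from a large subunit, RRM1, and a small subunit, RRM2, which is made in S phase and destroyed at mitosis. Rrm2 (chr12:24708241-24714146) was at 20.6, 18.0 and 19.7 TPM in Model lungs, against 2.27, 2.90 and 1.75 TPM in Control lungs, a change of 2.64 on the log2 scale (SE 0.15, adjusted p = 1.41e-06) that was level with that of Birc5 (2.63). Rrm1 (chr7:102441695-102469771) overlapped, at 17.2, 14.9 and 16.8 TPM in Model lungs and 19.2, 16.1 and 17.3 TPM in Control lungs (-0.10, SE 0.14, adjusted p = 0.534). Rrm2 over Rrm1 was 1.20, 1.21 and 1.18 in Model lungs, against 0.118, 0.180 and 0.101 in Control lungs. The small subunit was thus near the level of the large one in each Model library and far below it in each Control library. Under all 4 rescalings the sign of Rrm1 was positive, and it was called higher with median-ratio rescaling (0.41, adjusted p = 0.0144) and with TPM recomputed without the segments (0.52, adjusted p = 0.00557). Tyms, the enzyme that makes thymidylate, was at 11.7, 12.6 and 10.5 TPM in Model lungs, against 7.55, 7.25 and 9.72 TPM in Control lungs (0.46, SE 0.14, adjusted p = 0.0174), a call that was lost without M2, C1 or C2 (adjusted p of 0.0587, 0.0557 and 0.0602).

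**Figure D4:**
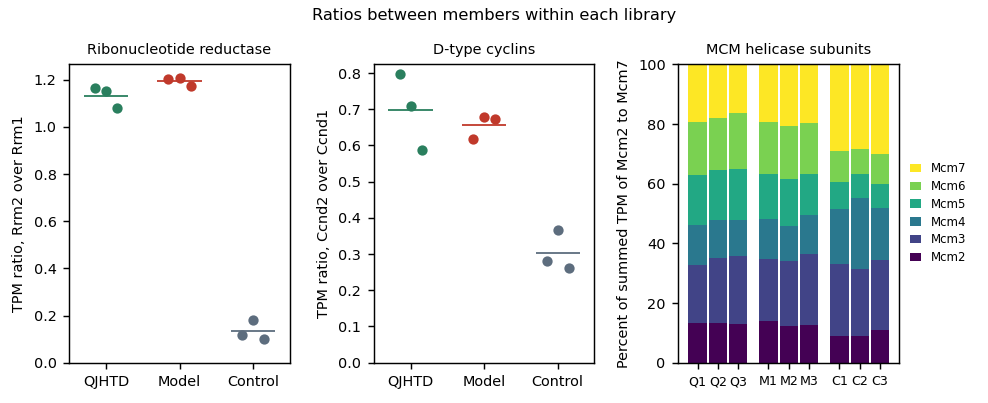
Ratio of Rrm2 over Rrm1 TPM (left) and of Ccnd2 over Ccnd1 TPM (middle), with a point for each library and a line at the mean, and the percent of the summed TPM of Mcm2 to Mcm7 taken by each subunit in each library (right). Rrm2 over Rrm1 lies at 1.08 to 1.21 in the QJHTD and Model libraries and at 0.101 to 0.180 in the Control libraries, and the Mcm7 share is largest in the Control libraries.

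All 7 genes of G2 and of entry into mitosis rose. Mki67, the Ki-67 protein that coats mitotic chromosomes and marks dividing cells, was at 18.3, 14.8 and 19.7 TPM in Model lungs, against 2.80, 2.5 and 1.45 TPM in Control lungs (log2 fold change 2.53, SE 0.19, adjusted p = 5.91e-06). Top2a, the topoisomerase that untangles sister chromatids, was at 23.2, 20.9 and 27.3 TPM in Model lungs, against 3.89, 4.93 and 2.90 TPM in Control lungs (2.35, SE 0.20, adjusted p = 1.36e-05). The lowest Model value of each was over 4 times the highest Control value.

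Cdk1, the kinase of mitosis, was at 26.0, 25.3 and 30.8 TPM in Model lungs, against 6.30, 3.77 and 4.45 TPM in Control lungs (2.30, SE 0.20, adjusted p = 1.37e-05). Set against the G1 kinase, Cdk1 over Cdk4 was 0.525 to 0.606 in Model and 0.0556 to 0.0672 in Control libraries. The cyclins that bind CDK1 rose by like amounts, 2.00 for Ccna2, 2.13 for Ccnb1 and 1.94 for Ccnb2. Foxm1, the transcription factor of this wave, had the smallest change of the group (0.71), at 3.08, 2.85 and 2.66 TPM in Model lungs, against 2.04, 1.08 and 1.07 TPM in Control lungs.

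The 10 genes of the spindle, its checkpoint and the exit from mitosis rose without an overlap between the groups. Aurkb, Bub1, Bub1b, Ttk and Kif11 are among the 9 genes that were below 1 TPM in some Control library. Birc5, or survivin, which guides Aurora B to centromeres, was at 22.7, 21.5 and 22.8 TPM in Model lungs, against 2.72, 3.02 and 2.56 TPM in Control lungs (log2 fold change 2.63, SE 0.17, adjusted p = 2.44e-06). Ube2c, the ubiquitin-conjugating enzyme of the anaphase-promoting complex, was at 26.7, 25.4 and 25.3 TPM in Model lungs, against 4.64, 3.44 and 2.43 TPM in Control lungs (2.60, SE 0.21, adjusted p = 8.68e-06). Both are among the members with a small spread over the Model libraries.

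Cdc20, the activator of that complex at anaphase, was at 17.3, 17.2 and 15.7 TPM in Model lungs, against 3.39, 2.87 and 2.89 TPM in Control lungs (2.13, SE 0.14, adjusted p = 2.72e-06). The mitotic kinases Aurkb (2.01), Plk1 (1.79) and Aurka (1.28) rose. So did Bub1b (1.99), Ttk (0.97) and Bub1 (0.90), the kinases and kinase relative of the spindle checkpoint, and Kif11 (1.68), the motor that pushes the spindle poles apart. Ttk and Bub1 had among the lowest levels of the 40 genes, with Model values of 1.49 to 1.78 TPM and 2.09 to 2.70 TPM, against 0.21 to 0.63 TPM and 0.66 to 0.94 TPM in Control lungs, and a pseudocount of 1 makes the change of such low genes look smaller. Cdc20 overlaps Elovl1 on the other strand, whose mean was 173.1 TPM in Model and 156.5 TPM in Control lungs.

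The other genes of the cycle were followed in 10 lists, counted against the same background (16.6% of all genes tested higher and 56.5% lower). Genes of these lists could also pass the filter through the exposed libraries alone, and the counts of higher genes include any such genes. Many were low: 5 of 25 listed spindle genes and 10 of 30 kinetochore genes averaged at least 5 TPM over the 9 libraries. Of 24 measured genes of spindle assembly and cytokinesis 22 rose and 0 fell, with a median log2 fold change of 1.15. Examples were the spindle assembly factor Tpx2 (1.84), the abscission scaffold Cep55 (1.84) and Tacc3 (1.35), a protein of the spindle microtubules. Among 30 genes of the kinetochore and centromere 21 rose and 4 fell (median 0.90), with Cdca8, a partner of survivin (1.94), Cenpm (1.72) and the motor Cenpe (1.36) in the lead. For condensin, cohesin and kinesins 14 of 25 rose and 6 fell (median 0.91), led by the condensin subunits Ncapg (1.80) and Ncapg2 (1.49) and the kinesin Kif2c (1.62).

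In S phase, 6 of 8 chromatin assembly genes rose and 0 fell (median 0.74), among them Uhrf1, which guides the maintenance of DNA methylation (1.64), and the histone chaperones Asf1b (1.80) and Chaf1a (0.70). The polymerases and their helpers went both ways, with 10 of 28 higher and 4 lower and a median of 0.02. Of all genes tested, 16.6% were higher and 56.5% lower. The flap nuclease Fen1 (1.63) and the nucleoside kinases Tk1 (1.37) and Dck (1.35) had the smallest p. Origin factors also went both ways, with 4 of 14 tested genes higher and 5 lower (median -0.19), beside the same shares of all genes. Mcm10 (1.20) and Wdhd1 (0.93) rose, and Gins4 (-0.59), like Gins2 a GINS subunit, fell.

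The lists of regulators and of the ubiquitin ligases had other counts. Of 8 CDK inhibitors 5 fell: Cdkn1c (p57), at 11.7, 9.15 and 9.57 TPM in Model lungs, against 51.3, 41.7 and 41.6 TPM in Control lungs (-2.04, SE 0.16, adjusted p = 8.22e-06), Cdkn2b (-0.91), Cdkn2c (-0.78), Cdkn1b (-0.69) and Cdkn1a (-0.60). Cdkn3 (1.57) and Cdkn2d (0.59) rose, and Cdkn2a was not called (0.40, adjusted p = 0.067). Cdkn3 is a phosphatase of CDKs that is itself made in mitosis. As 56.5% of all genes tested were lower, the count of 5 of 8 does not set the inhibitors apart from genes in general. Of 17 pocket protein, E2F and DREAM genes 5 rose and 7 fell (median -0.19), with the repressor E2f6 (-1.29) and the DREAM subunit Lin52 (-1.18) lower and the late repressor E2f8 (1.42) higher.

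For the CDK switches 5 of 15 genes rose and 5 fell (median -0.04), with the CDK subunit Cks1b (1.33) and the checkpoint mediator Clspn (1.12) higher and Mnat1 (-0.64), of the CDK-activating kinase, lower. In the anaphase-promoting complex and SCF ligases 1 of 22 genes rose and 16 fell (median -0.64), led by Anapc13 (-1.33), Skp1a (-1.40) and Anapc11 (-0.91). Of all genes tested 56.5% fell as well, with a median of -0.47, so the fall of the ligase genes is close to that of genes in general.

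Summed markers of several immune cell types were higher in Model than in Control lungs, while 16.6% of all genes tested rose. Those of alveolar macrophages were lower, at 342.0 to 352.2 TPM in Model and 404.8 to 422.1 TPM in Control libraries. The summed TPM of 10 plasma cell markers was 9807 to 11719 in Model and 351.9 to 513.1 in Control libraries, and all 10 rose. The 8 markers of mature neutrophils (8 rose) summed to 6406 to 13554 TPM in Model and 154.8 to 355.1 TPM in Control libraries, and the 10 of monocytes and interstitial macrophages (8 rose) to 1128 to 1275 TPM in Model and 175.5 to 206.6 TPM in Control libraries. Those of B cells (4 of 10 rose) summed to 207.4 to 266.7 TPM in Model and 51.9 to 100.4 TPM in Control libraries, those of T cells (8 of 12 rose) to 94.6 to 126.3 TPM in Model and 58.5 to 85.9 TPM in Control libraries, and those of germinal centre B cells (2 of 7 rose) to 65.9 to 69.2 TPM in Model and 35.8 to 52.9 TPM in Control libraries. The 6 markers of dividing neutrophil precursors summed to 4.20 to 10.9 TPM in Model and 0.96 to 1.23 TPM in Control libraries. Mpo, among them, was at 1.16 to 2.93 TPM in Model and 0 to 0.25 TPM in Control libraries. The 3 of these markers that passed the filter did so through the exposed libraries, so no count of calls is given for them. Of the markers of resident tissue, 8 of 8 fell for endothelium, 7 of 7 for club and ciliated cells, 6 of 7 for alveolar type 1 cells, 6 of 8 for fibroblasts and smooth muscle (2 rose), 2 of 8 for alveolar type 2 cells and 4 of 10 for alveolar macrophages (5 rose), where 56.5% of all genes tested fell. Of 7 tested markers of erythroblasts and megakaryocytes, 0 rose and 5 fell. The part of these cells in the values of the cycle genes was not tested.

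The treatment was examined in QJHTD against Model lungs. At an adjusted p under 0.05, 0 of the 40 genes were called by limma, where 0.0124% of all genes tested were called. At an unadjusted p under 0.05, 6 were higher and 0 lower, where 4.10% of all genes were higher and 2.74% lower. The mean of log2 values was higher in QJHTD lungs for 38 of the 40 genes (62.0% of all genes), with Ccnd1 (-0.06) and Ccnd3 (-0.07) as the exceptions. The median log2 fold change was 0.26 over the 40 genes and 0.05 over all genes.

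All 3 QJHTD libraries lay above all 3 Model libraries for 21 of the 40 genes, where 8.44% of all genes did, and all 3 lay below them for 0 of 40, where 3.81% did. The 21 genes were Cdk6, Ccne1, Cdk2, E2f1, Mcm2, Mcm4, Mcm5, Mcm6, Mcm7, Rrm1, Rrm2, Ccna2, Ccnb2, Mki67, Aurkb, Plk1, Bub1b, Ttk, Kif11, Birc5 and Cdc20. They come from all 6 steps, with 1 of 5 G1, 3 of 4 G1/S, 5 of 11 replication, 2 of 3 nucleotide, 3 of 7 G2 and 7 of 10 spindle, checkpoint and exit genes. The margin differed between genes. It was small for Birc5, at 22.82 TPM in Q1 and 22.78 TPM in M3, and for Kif11, at 4.51 TPM in Q1 and 4.44 TPM in M3. It was wider for Mcm5, at 14.43 TPM in Q1 and 11.70 TPM in M1. With median-ratio rescaling, a setting chosen after seeing the data, 15 of the 40 genes and 7.04% of all genes lay above without overlap.

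The genes with the smallest p were mostly of the MCM ring. Mcm5 was at 14.4, 16.8 and 20.6 TPM in QJHTD lungs, against 11.7, 11.5 and 11.4 TPM in Model lungs (log2 fold change 0.53, SE 0.15, limma adjusted p = 0.585). Mcm2 was at 11.5, 13.1 and 15.6 TPM in QJHTD lungs, against 10.8, 8.97 and 10.3 TPM in Model lungs (0.38, SE 0.13, adjusted p = 0.685). Mcm4 (0.37, SE 0.14, adjusted p = 0.685) and Mcm6 (0.40, SE 0.16, adjusted p = 0.701) had like values, with Mcm6 at 15.5, 17.2 and 22.4 TPM in QJHTD lungs, against 13.6, 13.1 and 13.95 TPM in Model lungs. The summed TPM of the 6 subunits was 87.2 to 120.2 in QJHTD and 73.2 to 82.1 in Model libraries, without overlap.

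Rrm1 was at 19.1, 18.8 and 26.8 TPM in QJHTD lungs, against 17.2, 14.9 and 16.8 TPM in Model lungs (0.37, SE 0.14, adjusted p = 0.688). Plk1, the kinase that drives entry into and passage through mitosis, was at 8.42, 8.26 and 12.5 TPM in QJHTD lungs, against 6.71, 6.24 and 7.55 TPM in Model lungs (0.43, SE 0.15, adjusted p = 0.685). No member of this comparison passed the adjusted threshold under any alternative run, so these values describe libraries and are not calls.

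Within the QJHTD group a single library stood apart. Q3 was the highest QJHTD library for 37 of the 40 genes, and Q1 was the lowest for 25. The same counts were not made over all genes. The median-ratio factors of the libraries were 0.845 (Q1), 0.942 (Q2) and 0.937 (Q3), so Q1 was also low over genes in general. The coefficient of variation between libraries had a median over the 40 genes of 16.9% in QJHTD, 7.56% in Model and 17.7% in Control lungs, where all genes averaging 1 TPM or more had medians of 11.95%, 12.7% and 12.8% in the same groups. Birc5 shows the pattern, at 22.8 (Q1), 23.2 (Q2) and 37.0 TPM (Q3).

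The values without Q3 were smaller. The median log2 fold change of the 40 genes was then 0.14 (0.03 over all genes), and Mcm5 was at 0.40, Plk1 at 0.26 and Mcm6 at 0.26. Both remaining QJHTD libraries lay above all Model libraries for 21 genes, where 11.5% of all genes did. Leaving out a library can keep or raise such a count but not lower it, so this count cannot test the part of Q3. The marker sums that follow are of all 3 QJHTD libraries, with Q3 included. Summed B cell markers were 282.3 to 306.5 TPM in QJHTD and 207.4 to 266.7 TPM in Model libraries. T cell markers were 118.2 to 174.5 TPM in QJHTD and 94.6 to 126.3 TPM in Model libraries. The B cell sums did not overlap and the T cell sums did. Without overlap were also the sums for endothelium, at 247.4 to 308.8 TPM in QJHTD and 220.8 to 236.1 TPM in Model libraries, and for monocytes and interstitial macrophages, at 1288 to 1654 TPM in QJHTD and 1128 to 1275 TPM in Model libraries. Of single genes tested, 8.44% lay wholly above in this way. Of the markers, 0 of 10 were called for B cells, 0 of 12 for T cells, 0 of 8 for endothelium and 0 of 10 for monocytes and interstitial macrophages. Mature neutrophil markers overlapped, at 4364 to 8011 TPM in QJHTD and 6406 to 13554 TPM in Model libraries (median log2 fold change -0.77, 0 of 8 called), as did plasma cell markers, at 10166 to 13077 TPM in QJHTD and 9807 to 11719 TPM in Model libraries. The part of these cells in the values of the cycle genes was not tested.

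**Figure D5:**
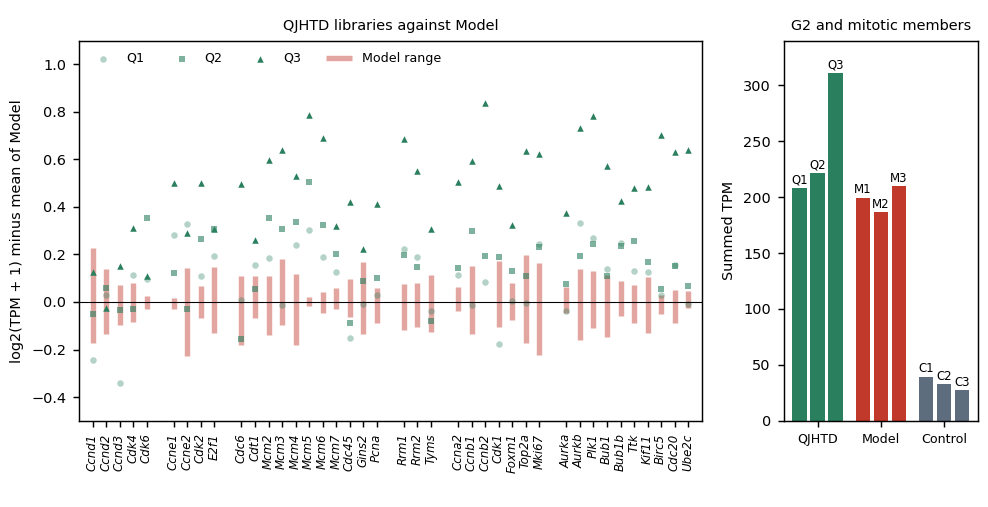
Left, log2(TPM + 1) of each gene in Q1, Q2 and Q3 (points) relative to the mean of the Model libraries, with the range of the Model libraries as bars. Right, summed TPM of the 17 G2 and mitotic genes in each library. Q3 is the uppermost point for 37 of the 40 genes, a count not made over all genes. Its sum of 311.0 TPM exceeds 207.8 TPM in Q1 and 221.9 TPM in Q2.

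QJHTD lungs were also set against Control lungs, a comparison that shares libraries with each of the others. Of the 40 genes 32 were higher and 5 lower (17.0% and 53.7% of all genes tested), and Ccnd2, Cdk2 and Rrm1 were not called. The 5 that were lower were Ccnd1 (-1.10), Ccnd3 (-0.79), Cdk4 (-0.57), Cdk6 (-0.47) and Gins2 (-0.35). By step, 0 of 5 G1, 3 of 4 G1/S, 10 of 11 replication, 2 of 3 nucleotide and all 17 G2 and mitotic genes were higher.

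The calls that were made here and not in Model against Control lungs were those of E2f1 (log2 fold change 0.55, SE 0.12, limma adjusted p = 0.00279), Mcm7 (0.43, SE 0.11, adjusted p = 0.00513), Mcm4 (0.49, SE 0.14, adjusted p = 0.00989), Pcna (0.33, SE 0.11, adjusted p = 0.0229) and Ccne2 (0.39, SE 0.15, adjusted p = 0.0415). A call in a single comparison does not show a difference between QJHTD and Model lungs, where none of the 5 genes was called. E2f1 was at 4.5, 4.95 and 4.96 TPM in QJHTD lungs, against 3.22, 3.1 and 2.57 TPM in Control lungs. Pcna was at 72.3, 76.2 and 94.7 TPM in QJHTD lungs, against 66.0, 65.6 and 60.4 TPM in Control lungs, and its call was lost without Q3 (0.21, adjusted p = 0.0633) or C3 (0.29, adjusted p = 0.0715). The call of Ccne2 was lost when Q1, Q3, M1 or any single Control library was left out (adjusted p of 0.0551 to 0.13).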

How the data were processed

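Lung RNA from 9 libraries, 3 per group by the labels, was analysed as TPM. The authors deposited TPM per gene and library, rounded to 2 decimals, from reads trimmed with fastp and quantified with RSEM per the labels (the sources used here give no versions). The labels name the build GRCh38.p6, a human assembly name, while 55486 of the 56263 genes have mouse Ensembl identifiers and 777 are loci assembled by the authors. Columns of group means were not used. Of the genes 55140 were found in GENCODE M21, which gave the coordinates. TPM carry no read counts, so depth and counting error are unknown and the precision rests on 3 libraries per group.

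The 16080 genes that reached 1 TPM in 3 or more libraries entered 1 limma model of log2(TPM + 1) over the 3 groups, with its intensity trend (limma 3.58.1, R 4.3.3; 6 residual and 2.88 prior degrees of freedom), 2-sided, and p values had Benjamini-Hochberg adjustment over all genes tested. A call needs an adjusted p under 0.05. The methods of the study name no test for the RNA-seq. The scripts were tested on simulated data. Tables and plots were made in Python 3.11.15 (matplotlib 3.10.9, numpy 2.4.6, pandas 2.3.3).

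The 40 genes and all lists (6 steps, 10 pathway lists and 14 cell type lists) were chosen with earlier results of these data known. Test values are printed for the 3 largest changes of each step, each D-type cyclin and CDK and each member that fell or was not called in Model against Control, for the 6 smallest p in QJHTD against Model, and for calls that differed in QJHTD against Control; of pathway lists, for the 3 smallest p and each CDK inhibitor. Alternatives were another pseudocount, filters, rescalings, fits, the replicate number as a block, single libraries left out, M2 and Q1 left out, and an unadjusted p under 0.05 with a log2 fold change of at least 1 in size.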

Additional observations from a re-analysis of the deposited data

How the results depend on the processing

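In Model against Control, 27 of the 40 genes kept their call and direction under every alternative that tested them. The threshold of a log2 fold change of at least 1 in size was set aside here. These 27 genes are not the 27 higher ones, as they include Ccnd1 and not Tyms. Of the 20 alternatives, the filter of a mean of at least 5 TPM tested only 28 of the 40 genes. Over the 4 rescalings 34, 33, 34 and 32 members were higher, against 27. The number of lower members fell to 1 of 5 with median-ratio rescaling, with TPM rescaled after leaving out receptor segments, mitochondrial genes and hemoglobin, and with the fold threshold. In QJHTD against Control it was 1 under the same 3 settings, 3 with quantile normalization, 2 when Scgb1a1 was also removed and 3 without M2 and Q1, against 5, and the number of higher members was 21 with a mean of at least 5 TPM, a filter that tests fewer members, against 32. The sign was turned for Cdk2 (0.14 with median-ratio rescaling, 0.035 with quantile normalization and 0.24 without the segments), Gins2 (0.0477 with median-ratio rescaling and 0.14 without the segments) and Rrm1 (0.41, 0.28, 0.52 and 0.17 over the 4 rescalings). Ccnd2 ranged from -0.0066, without Model replicate 1, to 0.15 when single libraries were left out. The median of all genes in Model against Control was -0.47, and -0.00, -0.16, 0.07 and -0.25 over the 4 rescalings, with 2674 genes higher and 9079 lower, against 4976 and 4753 with median-ratio rescaling, 4012 and 6215 with quantile normalization, 5377 and 3902 without the segments, and 1595 and 3448 with the fold threshold. In QJHTD against Control 2741 were higher and 8630 lower, against 5031 and 4686, 5784 and 3557, and 1614 and 3210 under median-ratio rescaling, without the segments and with the fold threshold. In QJHTD against Model 2 genes were higher and 0 lower, 0 to 3 and 0 to 2 under the alternatives, and 42 and 47 with the fold threshold. The members without overlap there were 15 to 28 of 40, where 7.04 to 24.3% of all genes were, in settings chosen after seeing the data. Where libraries were left out, this count could only stay or rise. With the replicate number as a block, 27 members were higher and 5 lower in Model against Control, 0 in QJHTD against Model, and 32 and 4 in QJHTD against Control. Correlations of deviations from the group mean were -0.103 to 0.089 between libraries of the same number and -0.151 to 0.144 between those of different number. Whether libraries of the same number shared anything else cannot be told from these values.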
